A study of Rattus norvegicus with 8 samples.

Results

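The haemoglobin and erythroid genes are read on this array by 10 probes for 9 genes, out of 45598 probes and 16678 named genes in all. They are the alpha globin genes Hba-a1, Hba-a2 and Hba-a3, the beta globin gene Hbb, and Alas2, Slc4a1, Epb42, Ahsp and Bpgm. The probes were taken by gene name, through the transcript accession of each probe. The genes were chosen on this list of names with the log2 differences between the groups known, in which Hba-a3 and Epb42 had already been seen to differ, so the group differences of these 10 probes are given as a description and not as a test. Vessels of 4 control and 4 hypertensive male rats were measured, with 1 array for each rat. Wistar-Kyoto, a strain with normal blood pressure, is the entry for the controls. The same strain is entered for the hypertensive rats, although the series title sets Wistar-Kyoto rats against hypertensive ones, so the strain of the latter is not settled here. No treatment or allele is named for either group, and age and the vessel taken are not given in the sources used here. Whether the rats of a group came from separate litters is not stated.

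Haemoglobin carries oxygen as a tetramer of 2 alpha and 2 beta chains, each holding a haem group. Mature red cells of mammals have no nucleus and make no RNA, but young red cells newly released from the marrow, the reticulocytes, still hold globin transcripts, so globin signal in a tissue is a usual sign of blood left in it. Alpha globin is also known in the endothelium of small arteries, where it binds endothelial nitric oxide synthase and limits the release of nitric oxide to the smooth muscle. In rats each globin family has several close copies, and their number and sequence differ between strains.

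Levels are log2 of the processed signal minus the 75th percentile of the array, so 0 is the level of a probe at that percentile, and differences are hypertensive minus control. All 8 arrays shared 1 slide and 1 scan, with the controls in 1 column of the slide and the hypertensive rats in the other, so slide position and group cannot be told apart. The smooth muscle and endothelial markers of the tissue check, 8 of each tested, were above background on all 8 arrays. Hypertensive replicate 4 stood apart. The summed level of its white adipocyte markers (log2 of the sum of their relative signals) was 6.37. The controls lay at 4.32 to 5.06 and hypertensive replicates 1 to 3 at 4.12 to 4.60, so values that rest on it are given with and without it. In such bulk samples, fewer cells of a type and less RNA per cell cannot be told apart.

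The start regions of the alpha globin genes are shown because the results turn on how far these near-copies went together. Each sequence holds 250 bases before and 50 bases after the gene start, from RefSeq, and 7 of the 9 genes matched that table (Slc4a1 and Ahsp did not). Hbb and Alas2 are shown for the motifs of erythroid promoters. Capitals mark the letters AGATAA and TGATAA (forms of the motif bound by GATA factors), CCACACCC (a CACCC box), CCAAT and TATAAA, searched on both strands, and overlapping matches run together.
Hba-a1, GRCr8 chr10:15842531-15842830, minus strand: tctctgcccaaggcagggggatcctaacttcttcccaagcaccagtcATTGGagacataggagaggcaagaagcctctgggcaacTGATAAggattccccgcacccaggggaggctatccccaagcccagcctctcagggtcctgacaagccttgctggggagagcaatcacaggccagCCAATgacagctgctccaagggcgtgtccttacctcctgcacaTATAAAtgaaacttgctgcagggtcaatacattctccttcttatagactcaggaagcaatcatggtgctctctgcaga
Hba-a2, GRCr8 chr10:15829089-15829388, minus strand: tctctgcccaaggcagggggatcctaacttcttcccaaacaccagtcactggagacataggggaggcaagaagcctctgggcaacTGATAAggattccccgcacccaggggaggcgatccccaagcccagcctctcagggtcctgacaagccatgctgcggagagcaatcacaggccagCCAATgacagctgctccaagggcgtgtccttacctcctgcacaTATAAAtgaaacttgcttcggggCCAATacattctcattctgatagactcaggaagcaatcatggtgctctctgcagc
Hba-a3, GRCr8 chr10:15816894-15817193, minus strand: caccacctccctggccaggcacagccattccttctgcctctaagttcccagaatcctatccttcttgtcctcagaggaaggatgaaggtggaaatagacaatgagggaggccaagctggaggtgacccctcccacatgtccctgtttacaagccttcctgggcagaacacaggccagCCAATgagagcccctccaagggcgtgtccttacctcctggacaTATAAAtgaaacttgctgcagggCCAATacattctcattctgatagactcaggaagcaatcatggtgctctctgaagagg
Hbb, GRCr8 chr1:167663672-167663971, minus strand: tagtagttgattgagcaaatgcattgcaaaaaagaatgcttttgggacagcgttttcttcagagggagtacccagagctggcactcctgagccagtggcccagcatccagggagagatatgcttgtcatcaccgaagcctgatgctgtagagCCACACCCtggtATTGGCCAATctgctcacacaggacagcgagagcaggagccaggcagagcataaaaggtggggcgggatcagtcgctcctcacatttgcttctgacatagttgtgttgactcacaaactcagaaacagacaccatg
Alas2, GRCr8 chrX:22895200-22895499, plus strand: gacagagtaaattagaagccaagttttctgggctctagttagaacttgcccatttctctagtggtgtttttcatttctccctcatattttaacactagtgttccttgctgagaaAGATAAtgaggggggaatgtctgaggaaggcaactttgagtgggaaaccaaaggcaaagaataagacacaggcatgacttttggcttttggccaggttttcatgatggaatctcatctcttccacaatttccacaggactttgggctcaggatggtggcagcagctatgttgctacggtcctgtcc

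Hba-a1 and Hba-a2 were the same at 96.0% of aligned positions of these 300 bases, while Hba-a3 was at 69.8% with Hba-a1 and at 69.6% with Hba-a2. Over the last 100 bases Hba-a3 was at 91.2% with each of them, so its differences lay mostly farther before the start. Hba-a1 and Hba-a2 each held TGATAA, starting 165 bases before the gene start, and Hba-a3 held neither AGATAA nor TGATAA in this window. Other GATA forms were not searched, so Hba-a3 is not shown to lack them. The letters tgatag, for example, stand in the Hba-a2 and Hba-a3 sequences above and not in that of Hba-a1. All 3 held TATAAA, 28 to 30 bases before the start, and CCAAT, 71 to 73 bases before it. Alas2 held AGATAA 136 bases before its start, and Hbb held CCACACCC 98 bases before its start. Among 33469 rat start regions of this length, 11.6% held AGATAA, 9.03% TGATAA, 3.22% CCACACCC, 37.5% CCAAT and 14.2% TATAAA. These matches describe the letters only.

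Between the groups, the probes of the alpha globin genes were not alike. This is a description, as the Hba-a3 difference was known when the genes were chosen. Hba-a3 was measured in every control vessel and in no hypertensive vessel, whereas Hba-a1 and Hba-a2 were bright on all 8 arrays with overlapping groups. For Hba-a3 the level was -3.96, -3.70, -3.44 and -3.77 in control replicates 1 to 4. In hypertensive replicates 1 to 4 the Hba-a3 probe stood at -7.24, -7.19, -7.46 and -7.84, not well above background on any of them. The groups lay far apart, at a mean of -3.72 ± 0.21 (SD, n = 4) in controls against -7.43 ± 0.30 (SD, n = 4). As the hypertensive values are at background, the size of the difference is not known. For scale, the control mean was 3.49-fold above a low reference on the hypertensive arrays. That reference is the lowest signal that any probe above background had on each array, or Hba-a3 itself where it was higher. It is not a detection limit, as Alas2 in hypertensive replicate 2, at -4.57, was not above background. The Hba-a3 difference was -0.58 after normexp correction, in which an added offset of 50 pulls dim probes together. Hba-a3 is read by a single spot of 1 probe, and whether that probe also binds its near-copies was not tested.

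Hba-a1, read by 10 spots of 1 probe, stood at 4.12, 4.78, 5.01 and 4.60 in control replicates 1 to 4. In hypertensive replicates 1 to 4 it was 4.31, 3.64, 3.92 and 5.47. The groups overlapped, with hypertensive replicate 4 the highest of all 8 arrays and hypertensive replicates 2 and 3 the lowest. The mean was 4.63 ± 0.38 (SD, n = 4) in controls and 4.34 ± 0.81 (SD, n = 4) in hypertensive rats, a difference of -0.29 ± 0.37 (SE of the limma fit). With 1 array left out it ranged from -0.67 without hypertensive replicate 4 to -0.061 without hypertensive replicate 2. The 10 spots of this probe within an array had a median SD of 0.029, so the spread of 0.38 and 0.81 between arrays lies far outside the spread between spots. With 1 array for each rat, differences between rats and between RNA preparations or labellings cannot be told apart.

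Hba-a2, also read by 10 spots of 1 probe, was -1.15, -0.42, -0.11 and -0.54 in control replicates 1 to 4. In the hypertensive rats Hba-a2 was -0.12, -0.64, -0.54 and 0.92 in replicates 1 to 4. Again replicate 4 was the highest array, and the lowest was control replicate 1. The difference of the means was 0.46 ± 0.35 (SE), and with 1 array left out it ranged from 0.12 without hypertensive replicate 4 to 0.65 without hypertensive replicate 2. So the mean of Hba-a2 lay higher and that of Hba-a1 lower in hypertensive rats, each by about its standard error.

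Hbb, the beta chain, was -1.11, -0.54, -0.43 and -0.40 in control replicates 1 to 4. It was -1.24, -1.78, -1.33 and 0.11 in hypertensive replicates 1 to 4. Hypertensive replicates 1 to 3 lay below every control, and replicate 4 above every control. The difference was -0.45 ± 0.37 (SE), from -0.83 without replicate 4 to -0.21 without replicate 2.

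Alas2 encodes the erythroid form of the first enzyme of haem synthesis. Alas2 was -3.24, -2.71, -3.38 and -3.13 across the control arrays in replicate order. Hypertensive replicates 1 to 4 had -4.02, -4.57, -4.22 and -2.84, replicate 2 being not well above background. As for Hbb, 3 hypertensive arrays lay below all controls, while replicate 4 lay within the range of the controls. The Alas2 difference was -0.80 ± 0.34 (SE), from -1.16 without replicate 4 to -0.58 without replicate 2, and -0.085 with normexp. It was past the threshold without replicate 4 and not with all 8 arrays or with normexp.

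Of the red cell membrane genes, Slc4a1, which encodes the anion exchanger band 3, was mostly at background. Its probe was above background on 1 control and 2 hypertensive arrays, with levels of -6.09 to -5.22 in controls and -5.53 to -4.70 in hypertensive rats, and it was not tested. Epb42, which encodes protein 4.2, a partner of band 3 under the membrane, was above background on all 8 arrays. Its control levels were -3.82, -3.79, -3.86 and -4.11 in replicate order. Its hypertensive levels were -3.24, -3.22, -2.88 and -3.27 in the same order. Every hypertensive array was higher than every control, with a difference of 0.74 ± 0.12 (SE), 1.67-fold, and 0.39 with normexp. Replicate 4, the highest array for Hba-a1, Hba-a2 and Hbb, was the lowest of the hypertensive arrays for Epb42.

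Ahsp, which encodes the chaperone that keeps free alpha globin soluble, lay between -2.92 and -2.54 in controls and between -3.09 and -2.45 in hypertensive rats. The groups overlapped, and the difference of 0.050 ± 0.16 (SE) changed sign with quantile normalization and with median centring (-0.018 and -0.036). Bpgm makes 2,3-bisphosphoglycerate, which lowers the oxygen affinity of haemoglobin. Its brighter probe, the second in the plot of levels, lay between 3.32 and 3.55 in controls and between 3.51 and 3.71 in hypertensive rats, a difference of 0.16 ± 0.089 (SE). The dimmer Bpgm probe had a difference of -0.11 ± 0.095 (SE), so the probes of this gene differed in sign, both with overlapping groups.

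**Figure D1:**
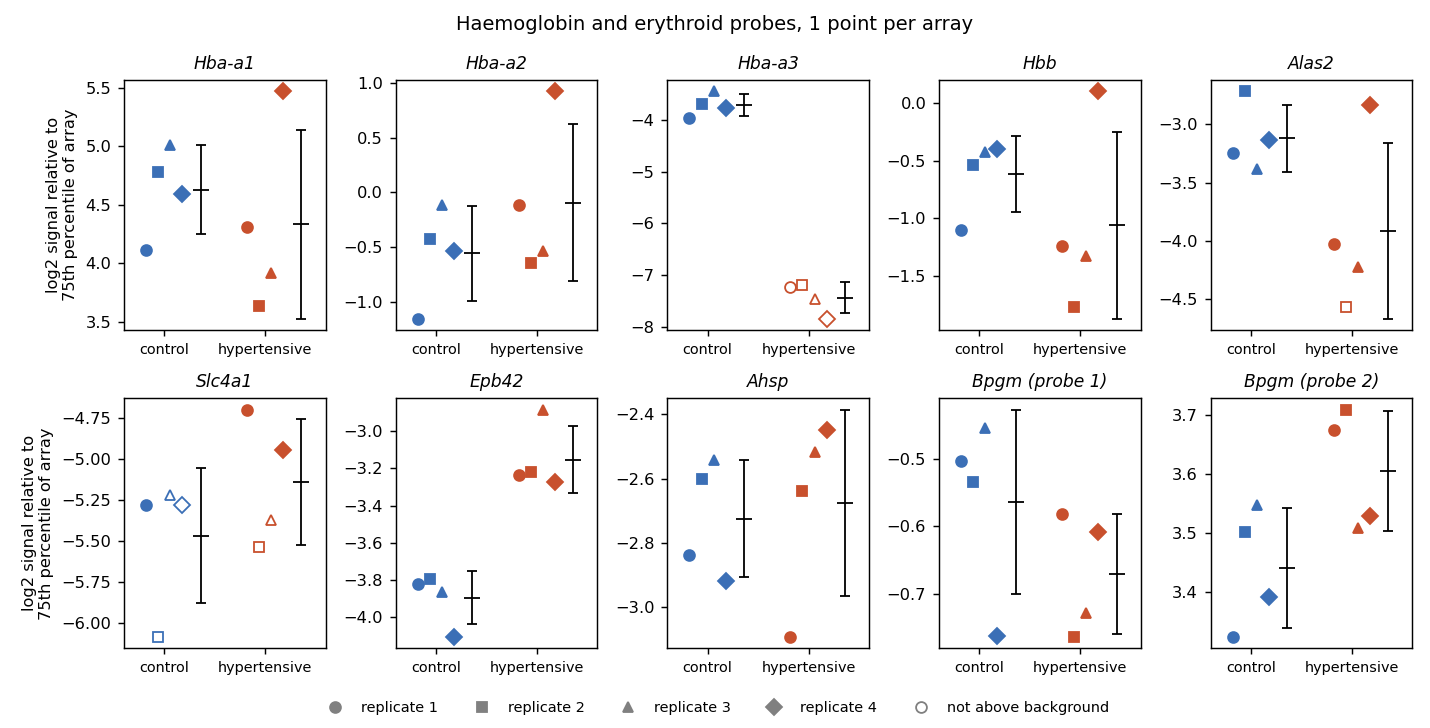
Log2 level relative to the 75th percentile of the array for the 10 probes, with 1 panel per probe and its own vertical scale. Points are arrays, with shapes for replicates and open points for arrays not well above background, and bars are the mean ± SD of 4 arrays. Hba-a3 is open on all 4 hypertensive arrays, Epb42 is higher on each hypertensive array than on any control, and replicate 4 is the highest hypertensive array for Hba-a1, Hba-a2, Hbb and Alas2.

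Of the 10 probes, 9 were above background on at least 3 arrays of a group and so entered the fit, Hba-a3 through the controls alone. Past the threshold, an adjusted p under 0.05 in the limma fit of all 27822 such probes, were 2 of the 9, Hba-a3 lower and Epb42 higher. These are the genes the choice already held, so nothing is read from this count. Over all probes the share past the threshold was 4.37% (2.45% higher and 1.91% lower), and the groups did not overlap for 13.4% (7.53% higher and 5.86% lower). The median difference of the 9 probes was -0.11, against 0.038 over all probes tested.

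The spread among rats of the same group leaves out the group difference that was known when these genes were chosen. Other earlier results of these data were known too, and probes of near-copies may read one another. After the mean of each group was subtracted, Hba-a2 followed Hba-a1 over the 8 arrays with Pearson r = 0.991 and Spearman rho = 0.952. Exchanging arrays within groups in all 576 ways gave an exact two-sided permutation p of 0.0017 for both, the smallest possible, and 0.014 adjusted over 8 relations to Hba-a1. Without hypertensive replicates 4 and 2, the arrays farthest from the median of Hba-a1, r was 0.996. Hbb followed Hba-a1 with r = 0.967 and rho = 0.857 (exact permutation p = 0.0069 and 0.019, adjusted 0.028 and 0.076), and r was 0.837 without those arrays. For Alas2, r was 0.853 and rho 0.690 (exact permutation p = 0.057 and 0.10, adjusted 0.15 and 0.27). The Alas2 relation rested on those arrays, with r = 0.170 without them. For Hba-a3, Epb42, Ahsp and both Bpgm probes, r lay between -0.40 and 0.41, with adjusted exact permutation p of r from 0.57 to 0.96. These values too hang on single arrays, as the brighter Bpgm probe went from r = -0.025 to 0.952 without hypertensive replicates 4 and 2. Hba-a3, with its hypertensive values at background, went from -0.40 to 0.967 without the same arrays. The values of an array share its RNA, labelling and scaling. Hba-a3 can be ordered only in the controls, where its order from low to high (replicates 1, 4, 2 and 3) was that of Hba-a1. Over the controls alone r was 0.961, given without a test. The brighter Bpgm probe had the same order in the controls and also an r of 0.961 there, so this order is not particular to globin probes.

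**Figure D2:**
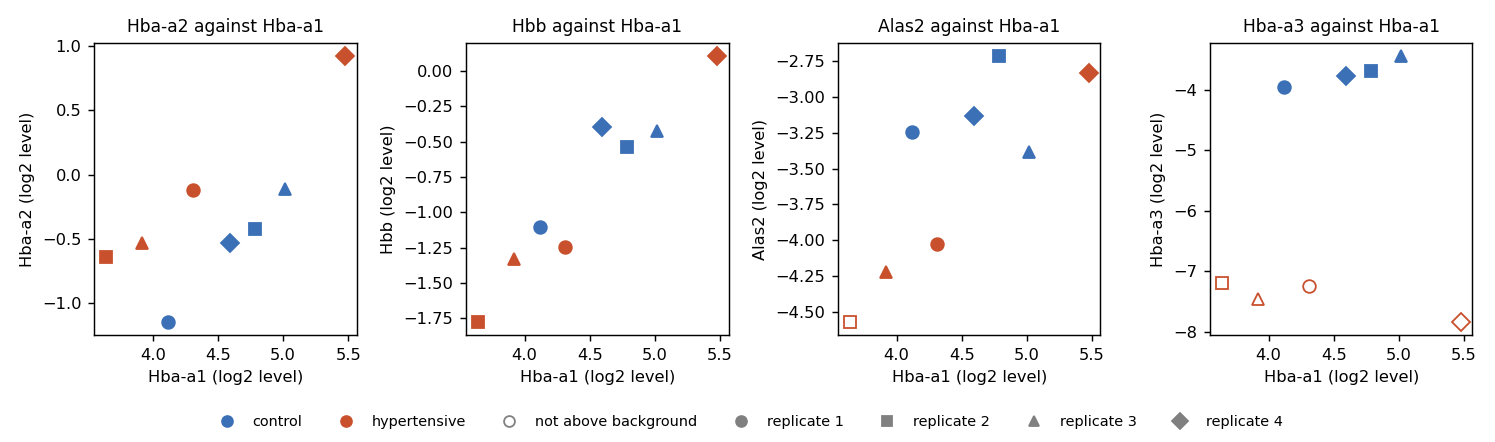
Log2 levels of Hba-a2, Hbb, Alas2 and Hba-a3 (vertical) against that of Hba-a1 (horizontal), with 1 point per array and open points not well above background. Hba-a2 forms parallel rows with the hypertensive arrays above the controls, Hbb forms nearly 1 row, and Hba-a3 is at background on each hypertensive array, replicate 4 with the highest Hba-a1 included.

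Among 11964 other named genes, each read by its brightest probe, those most like Hba-a1 in these within-group levels were Hbb-b1 (r = 0.992), Hbbl1 (0.991) and Hba-a2 (0.991), all globin genes. Hbb ranked 12 and Alas2 ranked 232, while Ahsp ranked 3223, Bpgm 6305, Epb42 8804 and Hba-a3 9377, the last with hypertensive values at background. Those most like Hba-a2 were Hba-a1 (0.991), Hbb-b1 (0.987) and the embryonic globin gene Hbe2 (0.985). Those most like Hbb were Pfkl, the liver-type phosphofructokinase gene that red cells also use (0.990), Hbbl1 (0.987) and Hbe2 (0.986). The genes most like the other members were no globins. They included Acy1, Abcg1 and Mtarc1 for Alas2 (r from 0.969 to 0.980), Dnase1 and Pde6h for Epb42 (0.975 and 0.950), Plscr3 and Lias for Ahsp (0.984 and 0.978), and Adra1a, Trappc2l and Or2b11 for Bpgm (0.963 to 0.984). For Hba-a3 they were C10h1orf35, Kcnh4 and Msh4 (0.966 to 0.994), an order that rests partly on hypertensive values at background. With 8 arrays and this many genes, high values of r are a description only.

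Because the globin probes moved so closely together within groups, each was also expressed as its log2 level minus that of Hba-a1 on the same array, a quantity chosen after its values were seen. Its size has no meaning between probes, and only its change between arrays is read. For Hba-a2 it was -5.27, -5.21, -5.13 and -5.13 in the 4 controls, by replicate. The hypertensive arrays stood at -4.43, -4.28, -4.46 and -4.55, by replicate. The spread shrank to an SD of 0.068 and 0.11 (n = 4 each), and every hypertensive array lay above every control, by a mean of 0.76, or 1.69-fold. The Hba-a2 shift was 0.71 to 0.80 with any 1 array left out and 0.72 with normexp, so replicate 4 fell in with the other hypertensive arrays.

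The Hbb value relative to Hba-a1 overlapped, at -5.44 to -4.99 in controls and -5.55 to -5.25 in hypertensive rats. Hba-a3 relative to Hba-a1 lay between -8.48 and -8.08 in controls. As Hba-a3 was not above background in hypertensive rats, it has no measured value there. With the lowest signal above background on each array in its place, hypertensive replicates 1 to 4 stood at -9.21, -9.20, -9.72 and -11.29. That signal is not a detection limit, so how far the true values lay from those of the controls is not known. With normexp the fitted Hba-a3 difference minus that of Hba-a1 was -0.26, against -3.42 from the processed signal, neither of which is a measured size. Of the other globin probes above background, relative to Hba-a1, the 2 probes of Hbb-b1 and the probes of Hbbl1 and Hbe2 differed by means of only -0.048 to -0.0043, while that of Hbb-bs, another beta globin copy, differed by 0.44. Hbb-bs was at -4.21 to -4.02 in controls and -3.91 to -3.33 in hypertensive rats, without overlap. Hbe1, a dim embryonic globin probe, overlapped. Of the 8 globin probes measured in both groups, the groups did not overlap for Hba-a2 and Hbb-bs. They did not for 1.32% of all other probes set against Hba-a1 in the same way (0.996% higher and 0.323% lower), and as the quantity was chosen after its values were seen, nothing is read from this count. As Hba-a1 itself had a lower mean in hypertensive rats, the median difference over all those probes was 0.33. The globin copies are close relatives, so a probe may read more than 1 of them, and which copy differed is uncertain.

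**Figure D3:**
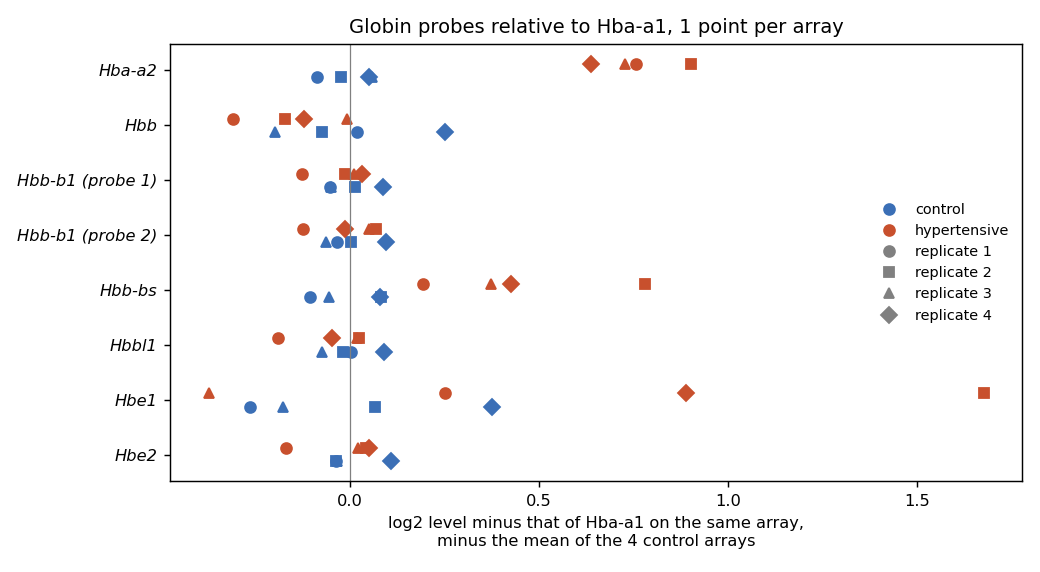
For 8 globin probes, the log2 level minus that of Hba-a1 on the same array, shown relative to the mean of the 4 controls, with 1 point per array and shapes for replicates. Hba-a2 and Hbb-bs separate the groups, the probes of Hbb-b1, Hbbl1 and Hbe2 stay within about 0.2 of the control mean on each array, and Hbe1 scatters.

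Among the globin genes that are no members, hypertensive replicate 4 was the highest array for each probe of Hbb-b1, Hbbl1, Hbb-bs, Hbe1 and Hbe2. The probes of Hbb-b1 and Hbe2 kept the order of all 8 arrays that Hba-a1 had, while Hbbl1, Hbb-bs and Hbe1 did not. Hbb-b1 (brighter probe) was 2.81 to 3.68 in controls and 2.44, 2.70, 2.91 and 4.19 in hypertensive rats in rising order, the last being replicate 4. Its difference was -0.30 ± 0.36 (SE, limma adjusted p = 0.69), that of Hbbl1, chosen after its values were seen, -0.34 ± 0.36 (adjusted p = 0.64), that of Hbb-bs 0.15 ± 0.36 (adjusted p = 0.85) and that of Hbe2 -0.31 ± 0.38 (adjusted p = 0.69). The embryonic genes Hbg1 and Hbz were not well above background on any array.

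Among other genes around haemoglobin, Hmox2 was lower in hypertensive vessels in every refit. Calls of Hmox1, Ppox and Mb were lost in some refits, and genes of the red cell itself did not pass in the main fit. Of 497 named genes past the threshold among 11965, the background share was 4.15% (2.11% higher and 2.05% lower). Of 16 haemoglobin and haem clearance genes tested, 2 fell and 14 did not pass (list median -0.098, against 0.022 over all named genes). Hmox2, the constitutive haem oxygenase, was 2.55, 2.57, 2.57 and 2.65 in the controls by replicate. The hypertensive arrays had 1.90, 1.98, 1.97 and 1.90. It fell by 0.65 on the log2 scale (SE 0.071, limma adjusted p = 0.0014), with the lowest control above the highest hypertensive array. Hmox1, the inducible haem oxygenase, was -0.34, -0.051, -0.63 and -0.61 in controls and -1.43, -1.23, -1.42 and -0.98 in hypertensive replicates. It fell by 0.86 (SE 0.16, limma adjusted p = 0.018). That call was lost without control replicate 1 (adjusted p = 0.059) or hypertensive replicate 3 (adjusted p = 0.051), and with the replicate block (adjusted p = 0.0585).

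Of 21 genes of haem synthesis and mitochondrial iron import, Ppox fell and 20 did not pass (median -0.027). That count is near the background share of 4.15%. Ppox, which encodes protoporphyrinogen oxidase, the enzyme before the last step of haem synthesis, was -0.016 to 0.049 in controls and -0.41 to -0.30 in hypertensive rats. It fell by 0.38 (SE 0.070, adjusted p = 0.020), and a dimmer Ppox probe differed by -0.47 ± 0.21 (adjusted p = 0.26). Ppox missed the threshold when control replicate 1, 2 or 4 or hypertensive replicate 2 was left out (adjusted p of 0.062, 0.057, 0.056 and 0.057). It also missed it without the detection filter and with the replicate block (limma adjusted p of 0.076 and 0.080). Of 10 other globins and globin reduction genes, Mb fell and 9 did not pass. Mb, myoglobin, the oxygen store of muscle, fell by 0.54 (SE 0.12, adjusted p = 0.038), but missed the threshold when any 1 control or hypertensive replicate 1 was left out (adjusted p up to 0.099). Summed skeletal and cardiac muscle markers, with Mb among them, were 1.102 to 1.301 in controls and 0.89 to 1.57 in hypertensive rats. The sum hides markers that went opposite ways. Of the 7 tested, Myh1, dim in controls at a mean of -5.11, was higher by 2.28 (SE 0.50, limma adjusted p = 0.040). Mb was lower and 5 did not pass. The part of these markers in the Mb result was not tested. Cygb (cytoglobin) differed by 0.050 ± 0.11 (adjusted p = 0.84), and Cyb5r3, which reduces oxidised alpha globin in endothelium, by -0.076 ± 0.099 (adjusted p = 0.71).

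None of 22 other erythroid genes passed in the limma fit, and 4 had an unadjusted p under 0.05 (list median 0.056). Closest were Gypc (glycophorin C) at -0.58 ± 0.14 (adjusted p = 0.055) and Sptb (erythroid beta spectrin) at 0.59 ± 0.18 (adjusted p = 0.12). Gypc passed with normexp, median centring or detection on all 8 arrays (adjusted p = 0.020, 0.043 and 0.048), and Sptb without control replicate 4 (adjusted p = 0.043). A further 13 erythroid genes of that list had a probe that was not kept. Of these, 11 were above background on no array, among them Gata1, the master factor of red cell development, Hemgn, Rhag and Kel. None of 15 genes of red cell glycolysis around Bpgm passed in the limma fit, and 2 had an unadjusted p under 0.05, Hk1 at 0.36 ± 0.12 (adjusted p = 0.16) and Eno1 at -0.23 ± 0.10 (adjusted p = 0.24). Hk1 passed without hypertensive replicate 4 (adjusted p = 0.038).

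**Figure D4:**
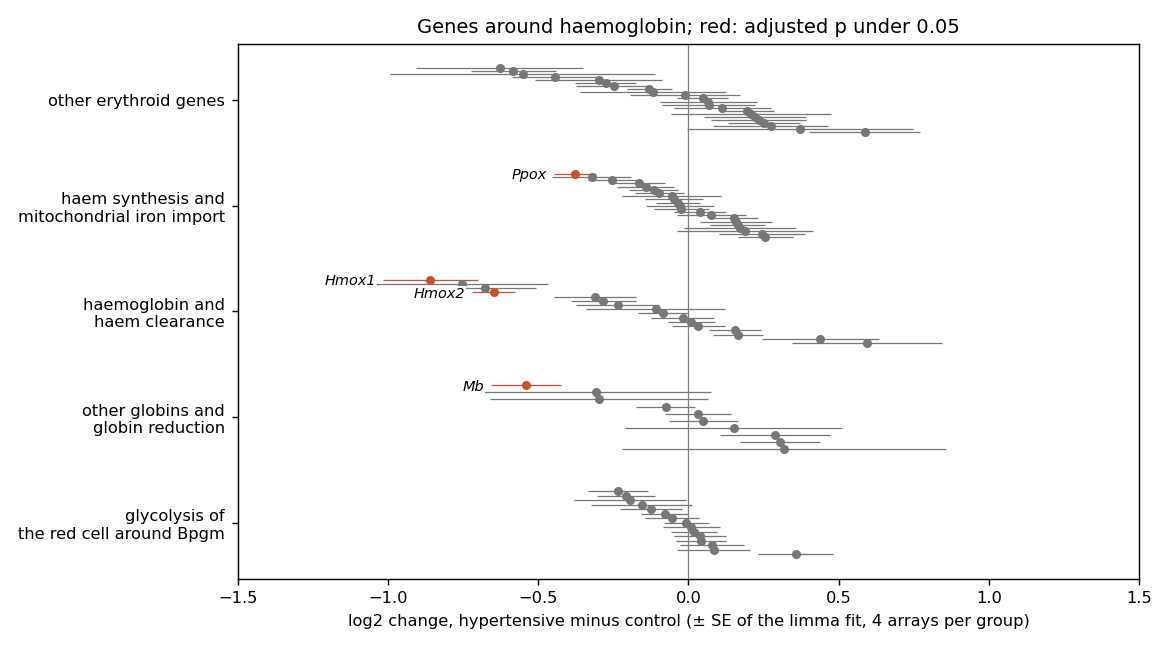
Log2 change (hypertensive minus control, bars ± SE from limma, 4 arrays in each group) of each tested gene in 5 lists around haemoglobin, 1 point per gene. Red points with names passed an adjusted p of 0.05. These were Ppox, Hmox1, Hmox2 and Mb, all lower, while no erythroid or glycolysis gene passed.

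Markers of other blood cells were set beside the globins. Of 13 platelet markers 5 were tested and none passed (2 with an unadjusted p under 0.05), with a summed level of 2.85 to 3.25 in controls and 2.43 to 2.65 in hypertensive rats. Pf4, the platelet chemokine that makes up most of that sum, differed by -0.44 ± 0.11 (adjusted p = 0.058). Of 12 neutrophil markers 3 were tested and none passed (1 unadjusted), with summed levels of 1.91 to 2.17 and 2.14 to 2.57, and Elane, Camp and Mmp8 did not pass the filter. Lcn2 alone, at 1.83 to 2.10 in controls and 2.06 to 2.46 in hypertensive rats, makes up most of the neutrophil sum. Of 13 lymphocyte markers 11 were tested and none passed (4 unadjusted), at 3.28 to 3.67 in controls and 2.73 to 3.003 in hypertensive replicates 1 to 3. Hypertensive replicate 4 was at 3.59. Its summed platelet, neutrophil and lymphocyte markers were the highest of its group, as were its levels of Hba-a1, Hba-a2, Hbb and Alas2. The part of these cells, and of the adipocyte signal of that array, in the globin levels was not tested.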

How the data were processed

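Total RNA of vessels from 8 male rats was extracted with Trizol, and 100 ng was labelled with Cy3 and hybridised to an Agilent rat array, per the labels' protocols. The scanner files hold spot intensity values, background-subtracted and processed by Agilent Feature Extraction, per the file headers (version 10.7.1.1, while the submitters' processing notes give 12.1.1.1). The deposited value table, a linear ratio by its comparison with the scanner values, is the processed intensity over 1 constant per array near the 75th percentile, with 0 probes above 1 off by over 5%, and its column medians were 0.092, 0.089, 0.086 and 0.091 in controls and 0.101, 0.093, 0.097 and 0.090 in hypertensive rats. It was used as an alternative.

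Of each array 213 to 396 spots marked as outliers were dropped if the probe had another, log2 values of a probe's spots were averaged, and the 75th percentile of the array (signal 357 to 503) was subtracted. No gene spot was saturated, and 58.7% to 64.1% of probes per array were well above background. A probe was kept where it was so on at least 3 of 4 arrays of a group. The number of arrays limits the precision. Symbols came from a RefSeq table (GRCr8), which named 21229 of 45598 probes. Coordinates are those of that table's start regions, and the probes themselves were not placed.

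Groups were compared per probe with limma 3.58.1 in R 4.3.3 over all 8 arrays, with Benjamini-Hochberg adjustment. Lists were read by the brightest kept probe of each gene, and the script was tested on simulated data. Every member and, per list, each gene past the threshold (otherwise the 2 of smallest p) was to be named, with the 3 genes most like each member, of which some are not reported here. Members, lists and the naming rule were chosen with earlier results of these data known. Genes named beyond the rule, such as Cygb, Cyb5r3 and the globin copies, were chosen after their values were seen. The spot mean used by normexp is replaced by the spot median, the column the files hold. Replicate numbers are not known to pair the rats, though each number is also the row of the slide in both columns. Deviations of same-numbered arrays correlated at 0.22, 0.12, -0.011 and -0.16. Control replicates 1 and 2 correlated best with their own number, and control replicates 3 and 4 did not. The limma p-values set each group difference against the spread between arrays within the groups. That spread does not hold the difference between the slide columns, which go with the groups.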

Additional observations from a re-analysis of the deposited data

Results flagged for a closer look

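In 4 cases a level had a replicate far from the other 3 of its group, by the gap to its neighbour over the range of the group (above Dixon's 95% value, which chance exceeds in about 1 in 20 groups, and 36 groups were looked at). Slc4a1 was lowest in control replicate 2 at -6.09 (next -5.28), on an array where it was not above background. Epb42 was highest in hypertensive replicate 3 at -2.88, with the next at -3.22. Gypc was highest in control replicate 2 at 0.41, with the next at 0.060. Mb was lowest in control replicate 2 at -0.89, with the next at -0.78.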

How the results depend on the processing

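The count of all probes past the threshold was 1215. It was 2027 with normexp, 716 without the detection filter and 710 with the replicate block, and 699 to 1662 with any 1 array left out (lowest without control replicate 1, highest without hypertensive replicate 4). With the replicate block, clearance genes past the threshold went from 2 to 1, and haem synthesis and other globins each from 1 to 0. The block changed no call of a member probe. Replicate numbers are not known to pair the rats, and not every array correlated best with its own number. The number of member probes past the threshold was 2, or 1 with detection on all 8 arrays, which drops Hba-a3, and 2 to 3 with 1 array left out. Other erythroid genes went from 0 to 1 with normexp, with median centring and with detection on all 8 arrays, haem synthesis from 1 to 2 with normexp, and haem synthesis and other globins each from 1 to 0 without the detection filter. With 1 array left out the counts were 0 to 1 for other erythroid, haem synthesis, other globin and glycolysis genes and 1 to 3 for clearance genes. Ahsp changed sign with quantile normalization (-0.018), median centring (-0.036) and single arrays left out (-0.025 to 0.19). Hbb minus Hba-a1 was 0.0034 with normexp, against -0.15. The cause of these shifts was not tested. Dim signal limits Slc4a1, Hba-a3, Alas2 and Epb42. Epb42 was above background on all 8 arrays, but its control mean of -3.90 lay below that of Hba-a3 at -3.72. It too is read by a single spot of 1 probe, and its difference went from 0.74 to 0.39 with normexp.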
